A study of Sus scrofa with 12 samples.

Results

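AGER, TLR2, TLR4, CD14, MYD88, IRAK2 and MAP3K8 encode candidate receptors for the extracellular protein S100A4 together with an adaptor and kinases that lie downstream of such receptors. The 7 genes were taken by name as parts of this signalling route, with earlier results of these data known. Each was found among the 21153 rows of the count table through its Ensembl gene symbol. After a filter on low counts 6 of the 7 were tested among 12444 genes. AGER was too low for the test and is given as counts. The values come from RNA sequencing of primary smooth muscle cell cultures from porcine coronary artery, labelled as differentiated and contractile. The cells had been passaged 6 to 11 times and were kept in medium with 10% fetal calf serum, which all groups shared. They received PDGF-BB at 30 ng/ml and S100A4 at 1 µg/ml together, either protein alone at the same dose, or neither (control). They were harvested 4 h later. The time before treatment was 24 h in all groups. In the series design the applied protein appears as oS100A4, with the prefix left unexplained, while the sample labels have S100A4, the name used here. Each of the 4 groups had 3 libraries with the replicate numbers 1 to 3, and the cells came from 3 animals. No label ties a number to an animal, so a p-value sets a group difference against the spread of these libraries and no more. The main fit left the replicate numbers out, so its spread includes the differences between them.

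Toll-like receptors and the receptor for advanced glycation end products (RAGE, the product of AGER) respond to microbial products and to proteins released by stressed or damaged cells, S100 proteins among them. Most Toll-like receptors recruit the adaptor MYD88, which assembles IRAK kinases and the ubiquitin ligase TRAF6 and leads to the transcription factor NF-kB and to MAP kinases. MAP3K8 (also called TPL2) is a kinase of this route that acts on the ERK pathway. These roles are known mainly from human and mouse cells. PDGF-BB is a growth factor for smooth muscle cells that signals through receptor tyrosine kinases.

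Library totals ranged from 21455021 to 32448438 counts, and at the lowest total 1 CPM, the unit of counts scaled to library size, stands for 21.5 counts. The smooth muscle identity was checked with 8 markers, all of which were detected, at a summed level of 7917 to 21892 CPM. Most of the sum was ACTA2, with a mean of 12763 CPM over all libraries. MYH11, CNN1, SMTN, DES and LMOD1 averaged 1002, 851, 334, 303 and 288 CPM. TAGLN and MYOCD were low, at 5.47 and 4.83 CPM. A first principal component with 49.9% of the variance set the 4 libraries numbered 2 against the remaining 8. Their smooth muscle marker sum averaged 8291 CPM, against 18655 CPM in replicate 1 and 19710 CPM in replicate 3, and their endothelial marker sum averaged 165 CPM, against 92.1 and 117 CPM. Same-numbered libraries deviated together across genes, so values from a fit with the replicate number as a block are given where they change a call. Macrophages carry several of the receptors. Of 15 macrophage and monocyte markers in the table, PTPRC, C1QA, C1QC and MARCO had 0 counts in every library. The summed level of all 15 was 3.89 to 4.22 CPM with both proteins, 2.82 to 4.05 CPM with S100A4, 3.60 to 4.20 CPM with PDGF-BB and 3.22 to 3.70 CPM in control cells. Among its 4 tested genes SPI1, a transcription factor, rose with both proteins (log2 change 1.23 ± 0.29 SE, edgeR adjusted p = 0.0124). SPI1 was low, at 9 to 40 counts, with means of 1.11 CPM in libraries with PDGF-BB and 0.562 CPM in those without. Other markers of the list did not share that rise. These means were 0.849 and 0.796 CPM for CD68, 0.922 and 0.900 for CSF1R, and 0.436 and 0.515 for ITGB2. The 3 T cell markers in the table were at 0 throughout. The endothelial sum moved with PDGF-BB, at 133 to 192 CPM with both proteins, 59.5 to 137 CPM with S100A4, 120 to 203 CPM with PDGF-BB and 55.2 to 127 CPM in control cells. ERG carried this move, with a mean of 120 CPM in the 6 libraries with PDGF-BB and 53.3 CPM in the 6 without it. In the same libraries CDH5 had means of 24.6 and 24.6 CPM and TEK of 0.403 and 0.410 CPM. Of 7 fibroblast markers PDGFRA, DCN, LUM, DPT and PI16 were highest in replicate 2, and TCF21 and COL14A1 were lowest there. PDGFRA averaged 34.6, 138 and 11.1 CPM and LUM 325, 721 and 208 CPM in replicates 1, 2 and 3, and the sum of all 7 averaged 1335, 1601 and 1069 CPM. The part of these markers in the results was not tested.

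TLR2, IRAK2 and MAP3K8 rose with S100A4, and no other tested member passed in that comparison. The 3 called members of 6 tested stand beside a background of 0.563% of all genes tested. Background shares of calls count both directions unless a direction is named. The members were chosen with earlier results of these data known, so such shares describe them and test nothing about the set. With PDGF-BB alone IRAK2 and MAP3K8 fell, 2 of 6 members beside a background of 14.7% (5.62% called lower). With both proteins IRAK2 was higher than in control cells, 1 of 6 members beside 22.0% (13.2% called higher). Adding S100A4 to PDGF-BB raised IRAK2 and MAP3K8, 2 of 6 beside 0.273%. Adding PDGF-BB to S100A4 lowered TLR2, IRAK2 and MAP3K8, 3 of 6 beside 15.0% (5.51% called lower). The 3 comparisons with control share the same control libraries. Groups without overlap were seen for 3 of 6 members with S100A4 against control, beside 9.72% of all genes tested. With PDGF-BB against control it was 3 beside 29.8%, and with both proteins 3 beside 35.6%. For both proteins against PDGF-BB it was 4 beside 8.69%, and against S100A4 4 beside 30.0%. For S100A4 against PDGF-BB it was 3 beside 26.4%. All calls are from edgeR's quasi-likelihood test at an adjusted p below 0.05, and those above are from the fit without the replicate block. With the block, 5 members passed with PDGF-BB against control beside 48.8% of all genes, and 4 with both proteins beside 56.1%. With S100A4 it was 3 beside 10.7%.

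**Figure D1:**
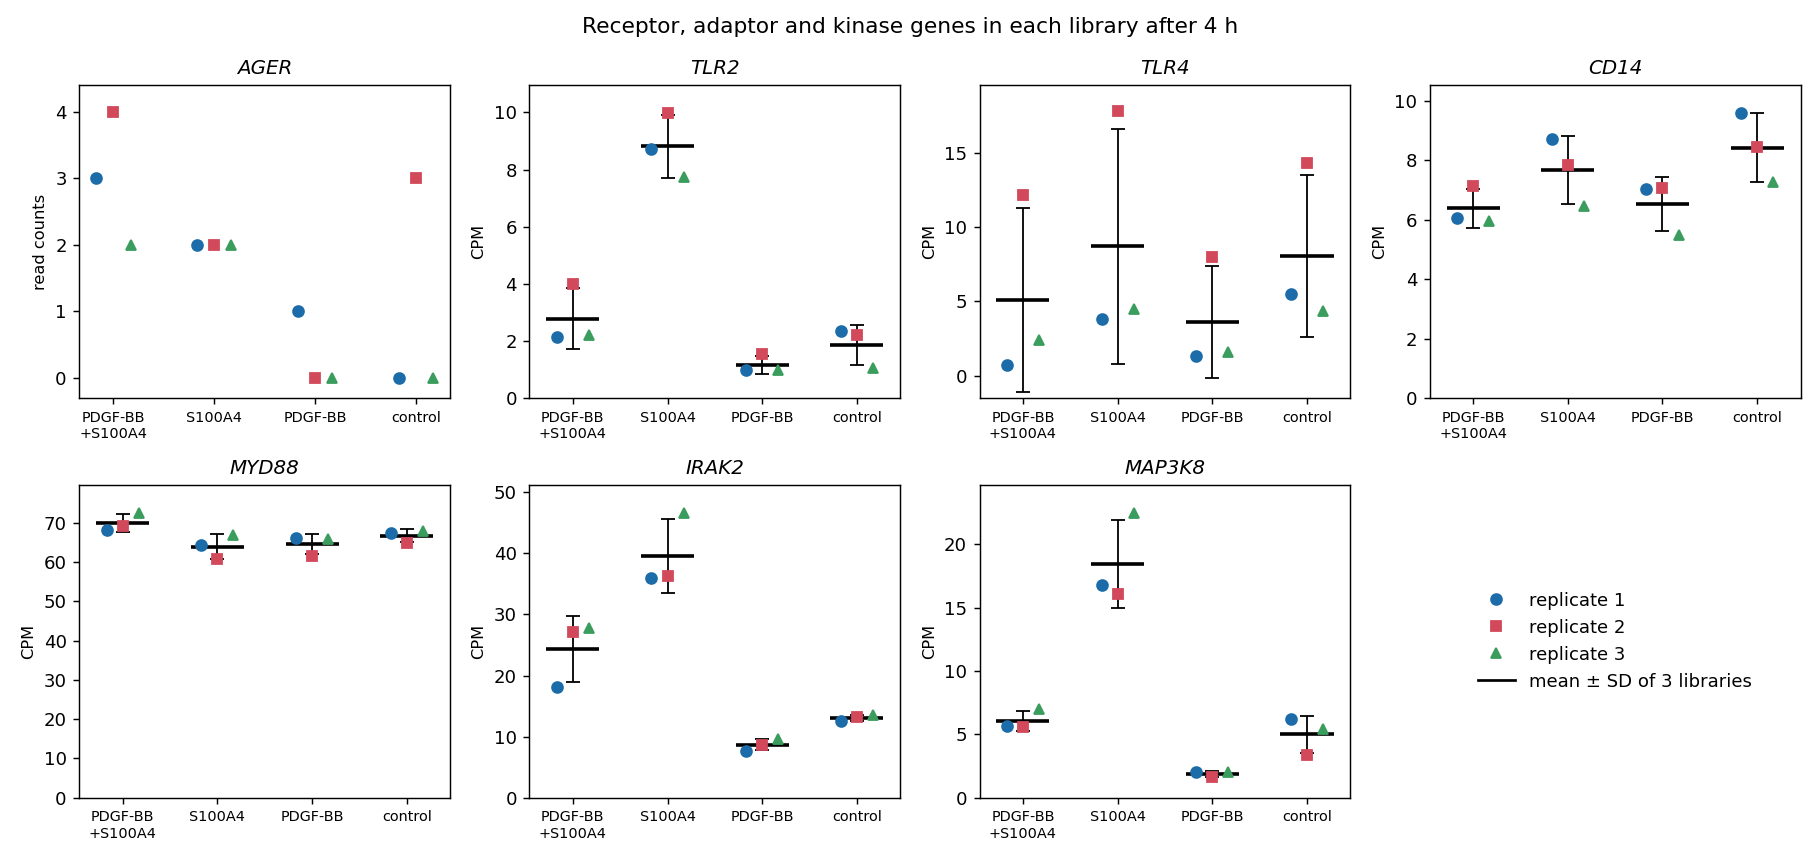
Level of each gene in each of the 12 libraries (CPM, or raw counts for AGER), by group from left to right PDGF-BB+S100A4, S100A4, PDGF-BB and control; points are libraries coloured by replicate number, and bars show the mean ± SD of 3 libraries (not drawn for AGER). TLR2, IRAK2 and MAP3K8 were highest with S100A4 alone (means of 8.81, 39.6 and 18.4 CPM) and lowest with PDGF-BB alone (1.16, 8.67 and 1.91 CPM), while the replicate 2 libraries were the highest of every group for TLR4.

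AGER, the gene of RAGE, a receptor of the immunoglobulin superfamily, was barely detected. It lies at chr7:24218116-24221162 (Sscrofa11.1, RefSeq annotation, as for all positions given here). It had 3, 4 and 2 counts with both proteins, 2, 2 and 2 with S100A4, 1, 0 and 0 with PDGF-BB, and 0, 3 and 0 in control cells. All 6 libraries with S100A4 held at least 2 counts, above the 3 libraries with PDGF-BB alone. Of all genes tested, 8.69% separated for both proteins against PDGF-BB and 26.4% for S100A4 against PDGF-BB. A control library held 3 counts of AGER, so both groups with S100A4 overlapped control. The 6 libraries with S100A4 summed to 15 counts (exact Poisson 95% interval 8.40 to 24.7), and the 6 without it to 4 counts (1.09 to 10.2). These intervals cover counting error only and have a lower and an upper bound. Of the libraries without S100A4, 4 were at 0, which allows an expected count of up to about 3 in each (95%, upper bound alone). In a fit without the filter, log2 changes were 0.99 ± 1.03 (SE) for S100A4 against control and 2.96 ± 1.12 for both proteins against PDGF-BB, and the larger one had an unadjusted p of 0.0237 and an adjusted p of 1.0 in edgeR's quasi-likelihood test. No AGER comparison passed in that fit.

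TLR2, the receptor that recognises bacterial lipopeptides with TLR1 or TLR6 rather than alone, rose 4.71-fold with S100A4 against control. The gene lies at chr8:75416257-75428370. It had 2.13, 4.01 and 2.20 CPM with both proteins (replicates 1, 2 and 3), 8.72, 9.97 and 7.75 CPM with S100A4, 0.972, 1.53 and 0.967 CPM with PDGF-BB, and 2.33, 2.20 and 1.04 CPM in control cells. The 3 S100A4 libraries lay above all others, and the libraries with both proteins lay above those with PDGF-BB but overlapped control.

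The log2 change of TLR2 with S100A4 against control was 2.24 ± 0.35 (SE, adjusted p = 0.0214 in edgeR's quasi-likelihood test, n = 3 libraries each). It was positive in all 3 same-numbered pairs, at 1.87, 2.14 and 2.81. Leaving out any 1 of the 6 libraries kept the change between 1.96 and 2.43 but took the adjusted p to between 0.0541 and 0.0832, and a fit of the S100A4 and control libraries alone gave 0.107. With the replicate block the change was 2.24 ± 0.18 (adjusted p = 1.13e-06). With both proteins TLR2 was 3.16-fold lower than with S100A4 alone (log2 change -1.66 ± 0.35, adjusted p = 0.0103). Against PDGF-BB alone the change with both proteins was 1.26 ± 0.35, which passed only with the block (1.25 ± 0.23, adjusted p = 0.408 without the block and 0.0032 with it).

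Against control, TLR2 changed by -0.69 ± 0.36 with PDGF-BB (edgeR adjusted p = 0.258) and by 0.58 ± 0.35 with both proteins (adjusted p = 0.291). Both passed with the block, at adjusted p = 0.0311 and 0.0336. The same-numbered pairs varied, at -1.20, -0.50 and -0.09 for PDGF-BB and at -0.13, 0.84 and 1.03 for both proteins. Without replicate 1 the blocked PDGF-BB change was -0.39 (adjusted p = 0.257). The blocked change with both proteins, 0.57 over all libraries, was 0.91 without replicate 1 (adjusted p = 0.00773), 0.35 without replicate 2 (0.296) and 0.44 without replicate 3 (0.164). The order of the group means was S100A4 (8.81 ± 1.11 CPM), both proteins (2.78 ± 1.07), control (1.86 ± 0.714) and PDGF-BB (1.16 ± 0.325, SD, n = 3 each). Control and its neighbours on either side overlapped.

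TLR4, the receptor for lipopolysaccharide and a reported receptor for S100 proteins, lies at chr1:258044610-258054641. Its level varied more between replicate numbers than between treatments. It had 0.739, 12.2 and 2.41 CPM with both proteins, 3.83, 17.8 and 4.47 CPM with S100A4, 1.30, 7.95 and 1.61 CPM with PDGF-BB, and 5.47, 14.3 and 4.34 CPM in control cells. Replicate 2 was the highest library in each group, and all groups overlapped. Averaged over the 4 groups, TLR4 stood at 2.83 CPM in replicate 1 and 3.21 CPM in replicate 3, each below the lowest replicate 2 library. The replicate 2 libraries were also low in smooth muscle markers, high in endothelial markers and high in 5 of 7 fibroblast markers, as above. The part of these markers in the TLR4 level was not tested. In bulk libraries fewer cells of a type and less RNA per cell cannot be told apart.

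Without the block no TLR4 comparison passed over all 12 libraries, and with replicate 2 left out the change with both proteins against control passed narrowly (-1.63, edgeR adjusted p = 0.0491). The 95% interval over all libraries for S100A4 against control ran from -2.20 to 2.42 on the log2 scale. Within replicate numbers TLR4 was lower in all 3 pairs with PDGF-BB than in control cells, by log2 changes of -2.01, -0.84 and -1.39. The blocked change was -1.28 ± 0.27 (SE, edgeR adjusted p = 0.00141), and it remained past the threshold without any 1 replicate number, at -1.02, -1.75 and -1.24. With both proteins TLR4 was also lower than control in each pair, at -2.76, -0.23 and -0.83, with a blocked change of -0.84 ± 0.27 (adjusted p = 0.0151). That change moved with the replicate number left out, to -0.42 without replicate 1 (adjusted p = 0.0404) and -1.65 without replicate 2 (2.91e-04), and the call was lost without replicate 3 (-0.85, adjusted p = 0.0760). The blocked change for both proteins against S100A4 was -0.86 ± 0.26 (adjusted p = 0.0151). It was -0.66 without replicate 1 (0.00574), -1.40 without replicate 2 (0.00161) and -0.85 without replicate 3, where the call was lost (0.0877). The pairs for S100A4 against control had mixed signs, at -0.51, 0.31 and 0.04, and the blocked change was 0.02 ± 0.25 (95% interval -0.52 to 0.55).

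CD14, the co-receptor that hands lipopolysaccharide to TLR4, showed a smaller difference in the same direction. It lies at chr2:142348036-142349686. Its level was 6.05, 7.15 and 5.95 CPM with both proteins, 8.72, 7.84 and 6.45 CPM with S100A4, 7.04, 7.07 and 5.48 CPM with PDGF-BB, and 9.58, 8.44 and 7.26 CPM in control cells. All libraries with PDGF-BB or with both proteins were below all control libraries, and the S100A4 libraries overlapped every other group. Of all genes tested, 29.8% separated in this way, in either direction, with PDGF-BB against control and 35.6% with both proteins. The change with PDGF-BB was -0.37 ± 0.16 (SE, edgeR adjusted p = 0.176) and with the block -0.37 ± 0.10 (adjusted p = 0.00725). With both proteins it was -0.40 ± 0.16 (adjusted p = 0.112) and with the block -0.39 ± 0.10 (adjusted p = 0.00454). The blocked PDGF-BB call was lost without replicate 1 (-0.32, adjusted p = 0.0507) or replicate 3 (-0.35, 0.0612), and the blocked call for both proteins without replicate 1 (-0.26, 0.0968). The S100A4 change of -0.14 ± 0.16 did not pass in either fit, with a 95% interval of -0.50 to 0.22.

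MYD88, the adaptor shared by most Toll-like receptors and the IL1 receptors, stayed within a narrow range. It lies at chr13:22976951-22979568 and overlaps ACAA1 in the annotation. Whether the counting used strand is not given, so its counts are uncertain. It had 68.2, 69.0 and 72.4 CPM with both proteins, 64.2, 60.7 and 66.9 CPM with S100A4, 66.0, 61.6 and 65.9 CPM with PDGF-BB, and 67.4, 64.9 and 67.8 CPM in control cells. The libraries with both proteins were the highest 3, narrowly. Changes against control were 0.07 ± 0.06 with both proteins, -0.06 ± 0.06 with S100A4 and -0.05 ± 0.06 with PDGF-BB (SE). The widest of their 95% intervals reached 0.20 on the log2 scale. With both proteins MYD88 was 0.13 ± 0.06 above S100A4 alone (edgeR adjusted p = 0.187), which passed with the block (0.13 ± 0.04, adjusted p = 0.0201). That call was lost without any 1 replicate number, at 0.14, 0.10 and 0.14 without replicates 1, 2 and 3 (adjusted p = 0.0938, 0.119 and 0.0995).

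IRAK2, a kinase-like protein of the complex that MYD88 assembles, was the member whose 4 groups separated completely. It lies at chr13:66350606-66416834. It had 18.2, 27.1 and 27.8 CPM with both proteins, 35.9, 36.2 and 46.6 CPM with S100A4, 7.73, 8.70 and 9.57 CPM with PDGF-BB, and 12.5, 13.3 and 13.5 CPM in control cells. No library of any group reached into the range of another. Between 8.69% and 35.6% of all genes tested separated in a given pair of groups. The share that separated in every pair was not counted. The order of the means was S100A4 (39.6 ± 6.07 CPM), both proteins (24.3 ± 5.34), control (13.1 ± 0.508) and PDGF-BB (8.67 ± 0.921, SD, n = 3 each), and each neighbour differed from the next in edgeR's test.

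With S100A4 IRAK2 rose 3.02-fold over control (log2 change 1.60 ± 0.17 SE, adjusted p = 0.00166 in edgeR's quasi-likelihood test), and with both proteins 1.86-fold (0.90 ± 0.17, adjusted p = 0.00382). With PDGF-BB alone it was 1.51-fold lower (-0.59 ± 0.17, adjusted p = 0.0396). The PDGF-BB call is the weakest of these. It was lost on leaving out any 1 of the 6 libraries (changes from -0.67 to -0.52, adjusted p from 0.0581 to 0.135), in limma-voom (adjusted p = 0.0887) and without the filter (0.0523), and it passed with the block (-0.60 ± 0.11, adjusted p = 4.17e-04). Adding S100A4 to PDGF-BB raised IRAK2 2.81-fold (1.49 ± 0.17, adjusted p = 0.00622). That call was lost without PDGF-BB replicate 1 (1.41, adjusted p = 0.0570) and in a fit of those groups alone (0.135). With both proteins IRAK2 was 1.63-fold lower than with S100A4 alone (-0.70 ± 0.16, adjusted p = 0.0178), a call lost without S100A4 replicate 3 (-0.57, adjusted p = 0.0704) and in a fit of those groups alone (0.0858).

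MAP3K8, the kinase that activates the ERK pathway downstream of these receptors, moved furthest in opposite directions with the proteins given singly. It lies at chr10:40714004-40746390. It had 5.70, 5.56 and 6.98 CPM with both proteins, 16.8, 16.1 and 22.5 CPM with S100A4, 2.06, 1.63 and 2.03 CPM with PDGF-BB, and 6.20, 3.36 and 5.42 CPM in control cells. The S100A4 libraries were above and the PDGF-BB libraries below all others, and the libraries with both proteins overlapped control. Means were 6.08 ± 0.784 CPM with both proteins, 18.4 ± 3.49 with S100A4, 1.91 ± 0.242 with PDGF-BB and 4.99 ± 1.47 in control cells (SD, n = 3 each).

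S100A4 raised MAP3K8 3.70-fold over control (log2 change 1.89 ± 0.23 SE, edgeR adjusted p = 0.00409), and PDGF-BB lowered it 2.61-fold (-1.38 ± 0.24, adjusted p = 0.00349). A fit of the S100A4 and control libraries alone gave an adjusted p of 0.107 for the rise. With both proteins the change against control was 0.29 ± 0.23 (adjusted p = 0.435, 95% interval -0.22 to 0.79), and it did not pass with the block either (0.30, adjusted p = 0.0979). The blocked change passed without replicate 1 (0.54, adjusted p = 0.00903) and was 0.12 without replicate 2. Adding S100A4 to PDGF-BB raised MAP3K8 3.18-fold (1.67 ± 0.24, adjusted p = 0.0194). Limma-voom gave an adjusted p of 0.0775 and a fit of those groups alone 0.0828 for that rise, and leaving out any 1 library of both groups except PDGF-BB+S100A4 replicate 2 took it to between 0.0553 and 0.120, with changes of 1.56 to 1.73. With both proteins MAP3K8 was 3.03-fold lower than with S100A4 alone (-1.60 ± 0.23, adjusted p = 0.00156).

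**Figure D2:**
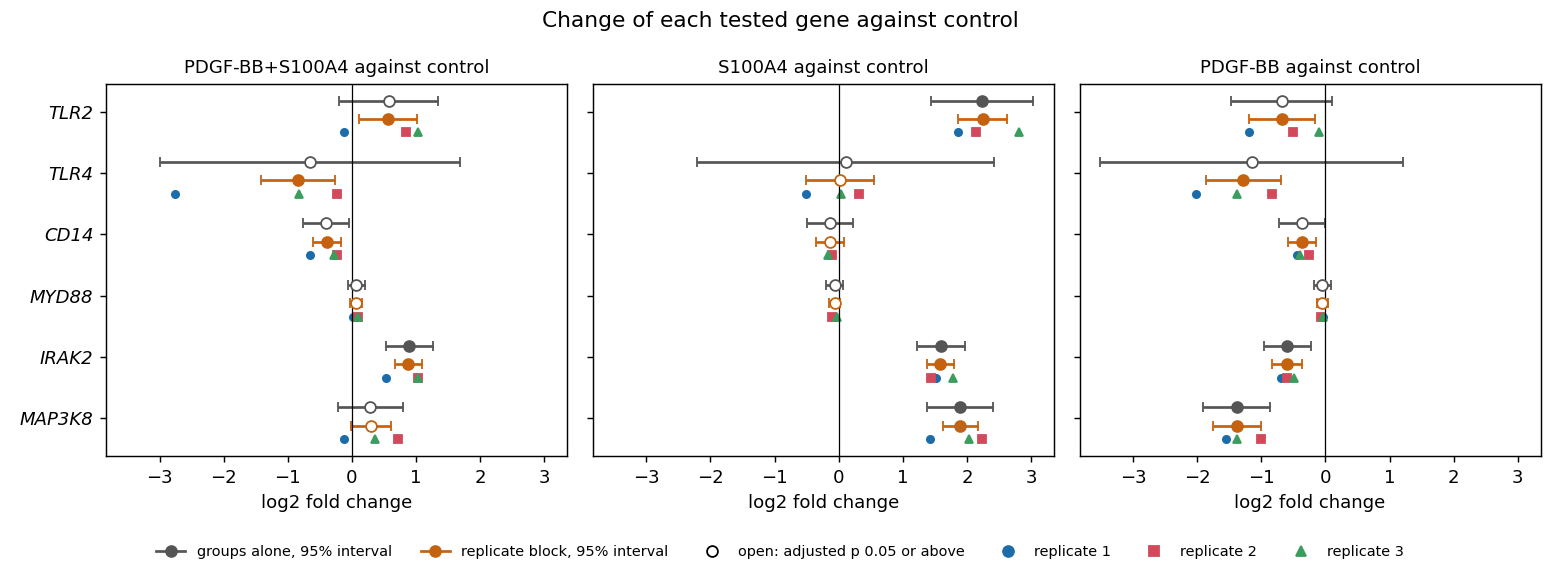
Log2 fold change against control of the 6 tested genes with PDGF-BB+S100A4, S100A4 and PDGF-BB; large circles with bars are estimates with 95% intervals without (grey) and with (orange) the replicate block, open where the adjusted p was 0.05 or above, and small symbols are same-numbered pairs. The interval of TLR4 with PDGF-BB ran from -1.87 to -0.70 with the block and from -3.51 to 1.21 without it, and MYD88 lies near 0 in each panel.

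Set directly against PDGF-BB, S100A4 gave 9.65-fold more MAP3K8, 7.58-fold more TLR2 and 4.56-fold more IRAK2. The log2 differences were 3.27 ± 0.25, 2.92 ± 0.37 and 2.19 ± 0.17 (SE), with edgeR adjusted p = 1.27e-04, 0.00108 and 1.38e-04. These 3 of 6 members stand beside a background of 11.1% of genes called (4.67% called higher). In this comparison TLR4 differed by 1.26 ± 1.06 without the block and by 1.30 ± 0.27 with it (adjusted p = 0.00138), higher with S100A4 in all 3 pairs. CD14 and MYD88 differed by 0.23 ± 0.16 and -0.01 ± 0.06 and passed in neither fit.

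With the block, more members passed in each pairwise comparison except S100A4 against control, where the number stayed at 3, and more genes passed in each. Members called against control were 3 of 6 with S100A4, all higher, beside a background of 10.7% (6.46% called higher). With PDGF-BB 5 were called, all lower, beside 48.8% (24.5% called lower), and with both proteins 4 beside 56.1%. The 4 were TLR2 and IRAK2, which were higher, and TLR4 and CD14, which were lower. For both proteins against PDGF-BB the block called 3 members beside 7.14%, and for both proteins against S100A4 it called 5 beside 47.8%. For S100A4 against PDGF-BB it called 4 beside 43.1%. Leaving out all 4 libraries numbered 1 or all 4 numbered 3 ended most of the calls made without the block. Of 14 such calls over the 6 pairwise comparisons, 12 were lost without replicate 1, 3 without replicate 2 and 11 without replicate 3, and each change kept its sign. Of the 24 calls made with the block, 4, 2 and 5 were lost without replicates 1, 2 and 3.

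Whether the proteins together gave more or less than the sum of their log2 effects was asked with the interaction. It subtracts the log2 change with S100A4 when PDGF-BB was absent from the change when PDGF-BB was present. No member passed in edgeR's quasi-likelihood test, in DESeq2 or in limma-voom, beside a background of 0 of 12444 genes in edgeR without the block and 0.113% with it. At an unadjusted p under 0.05 edgeR gave 0 members and 152 genes without the block, and 2 members and 1183 genes with it. Those members were TLR2 and MYD88. For TLR2 the interaction was -0.98 ± 0.49 (95% interval -2.07 to 0.12) and, with the block, -0.99 ± 0.30 (unadjusted p = 0.00531, adjusted p = 0.309), with pairs of -0.79, -0.79 and -1.69. For MYD88 it was 0.18 ± 0.08 (-0.01 to 0.36) and, with the block, 0.18 ± 0.06 (unadjusted p = 0.00909, adjusted p = 0.375).

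For the kinases the intervals of the interaction lay on both sides of 0. That of IRAK2 was -0.11 ± 0.23 (95% interval -0.63 to 0.41), and MAP3K8 gave -0.22 ± 0.33 (-0.94 to 0.51). CD14 gave 0.10 ± 0.23 (-0.41 to 0.61) and TLR4 0.38 ± 1.48 (-2.91 to 3.68). A member that responded to S100A4 in one setting and not in the other was therefore not shown to differ between them.

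**Figure D3:**
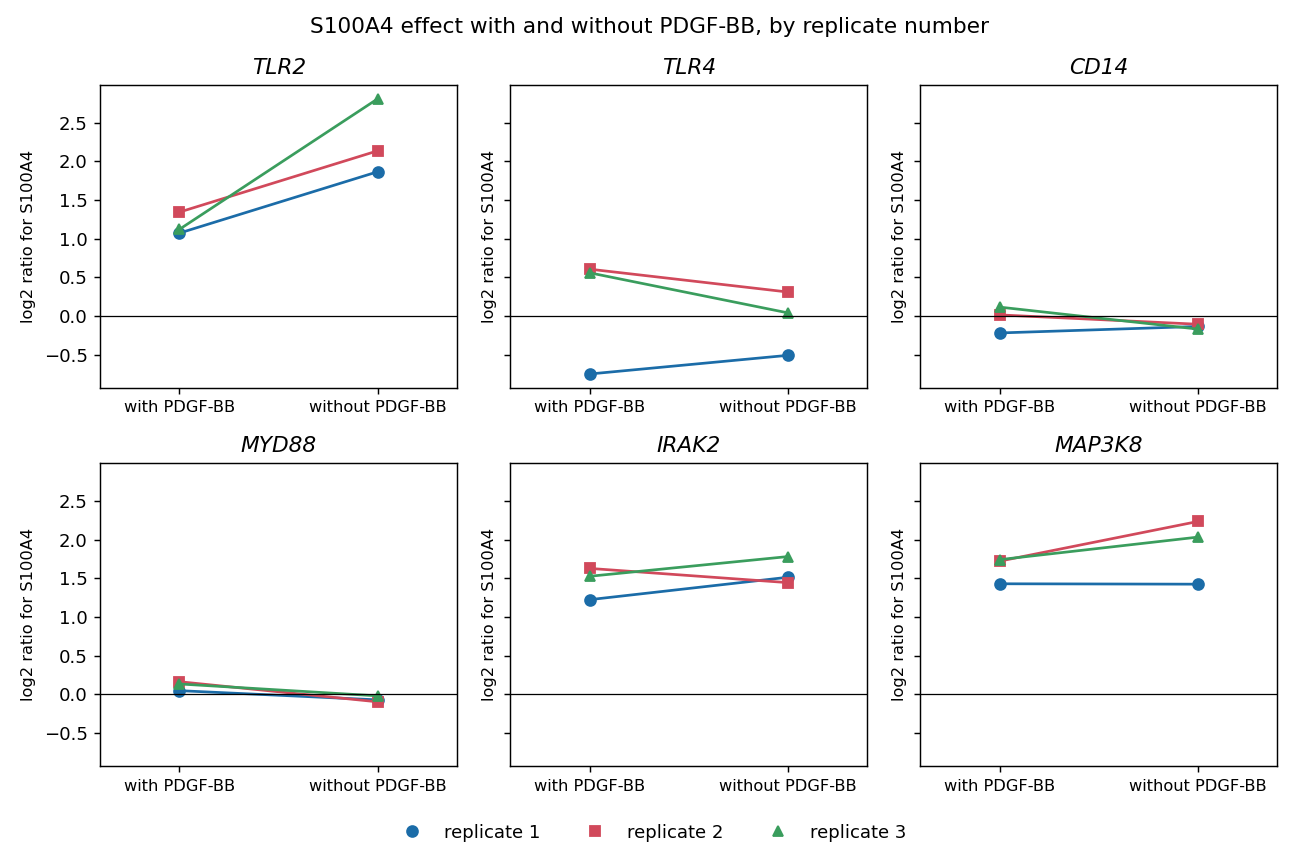
Log2 ratio for S100A4 with PDGF-BB (PDGF-BB+S100A4 over PDGF-BB, left) and without it (S100A4 over control, right) for each tested gene; each line joins libraries of 1 replicate number. For TLR2 every line is higher without PDGF-BB (1.87, 2.14 and 2.81, against 1.07, 1.35 and 1.12 with it). For TLR4, CD14, IRAK2 and MAP3K8 the lines do not all slope the same way, and that of MAP3K8 in replicate 1 is nearly level.

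The receptors act with partners, and the partner chains were read beside them. TLR1 and TLR6, either of which pairs with TLR2, fell with PDGF-BB and with both proteins, and neither passed with S100A4 alone. TLR6 had 5, 7 and 8 counts with both proteins, 28, 40 and 35 with S100A4, 8, 13 and 19 with PDGF-BB, and 28, 43 and 29 in control cells. All 6 libraries with PDGF-BB were below the other 6. That split was not counted over all genes. By pair of groups, 29.8% of all genes tested separated with PDGF-BB against control, and 30.0% with both proteins against S100A4. The log2 changes against control were -2.21 ± 0.29 with both proteins, 0.06 ± 0.26 with S100A4 and -1.52 ± 0.28 with PDGF-BB (SE), with edgeR adjusted p = 5.76e-04, 1.0 and 0.00501. TLR1 had 4 to 8 counts with both proteins, 19 to 22 with S100A4, 6 to 9 with PDGF-BB and 20 to 29 in control cells. Its changes were -2.17 ± 0.36 (adjusted p = 0.0020), -0.33 ± 0.32 (adjusted p = 1.0) and -1.95 ± 0.35 (adjusted p = 0.00458). TLR1 and TLR6 are near-identical copies in part, so their counts are uncertain.

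LY96 was singled out after its values were seen, as the partner that TLR4 needs to bind lipopolysaccharide. It had 5.83, 6.23 and 6.59 CPM with both proteins, 7.79, 7.50 and 9.39 CPM with S100A4, 7.77, 6.00 and 9.22 CPM with PDGF-BB, and 9.66, 7.60 and 9.29 CPM in control cells. All libraries with both proteins were below all control libraries, beside 35.6% of all genes tested whose groups separated in that comparison. The change was -0.51 ± 0.17 (SE, edgeR adjusted p = 0.0572) and passed with the block (-0.50 ± 0.11, adjusted p = 0.00173). IL1R1 and IL1RAP, the IL1 receptor chains that also recruit MYD88, went the other way. IL1RAP had 22.6, 27.4 and 27.3 CPM with both proteins, 11.9, 12.1 and 9.47 CPM with S100A4, 14.7, 17.2 and 16.8 CPM with PDGF-BB, and 6.16, 7.02 and 5.33 CPM in control cells. No group overlapped another, as for IRAK2, and the share of all genes with that separation was not counted. Its changes against control were 2.06 ± 0.14, 0.85 ± 0.14 and 1.39 ± 0.14 for both proteins, S100A4 and PDGF-BB, with adjusted p = 1.93e-05, 0.0243 and 2.47e-04. IL1R1 rose by 0.97 ± 0.15 with both proteins (adjusted p = 0.00141) and by 0.64 ± 0.15 with PDGF-BB (adjusted p = 0.0175), and with S100A4 its change of 0.70 ± 0.15 passed with the block only (adjusted p = 0.0968 without the block and 2.97e-06 with it).

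MAP3K8 protein is held by the NF-kB precursor encoded by NFKB1 and by TNIP2. NFKB1 rose in all 3 comparisons with control. It had 165, 205 and 195 CPM with both proteins, 112, 153 and 127 CPM with S100A4, 82.9, 106 and 93.4 CPM with PDGF-BB, and 53.2, 72.6 and 58.3 CPM in control cells. Every treated library was above every control library. Of all genes tested, 35.6%, 9.72% and 29.8% separated from control, in either direction, with both proteins, S100A4 and PDGF-BB. The changes were 1.62 ± 0.16, 1.09 ± 0.16 and 0.62 ± 0.16 (SE), with edgeR adjusted p = 1.13e-04, 0.0116 and 0.0249. Adding S100A4 to PDGF-BB raised NFKB1 by 1.00 ± 0.16 (adjusted p = 0.0371). With PDGF-BB alone NFKB1 was thus higher while MAP3K8 was lower than in control cells. TNIP2 changed by 0.25 ± 0.18, 0.08 ± 0.18 and 0.15 ± 0.18, and the first of these passed with the block (0.24 ± 0.10, adjusted p = 0.0423).

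**Figure D4:**
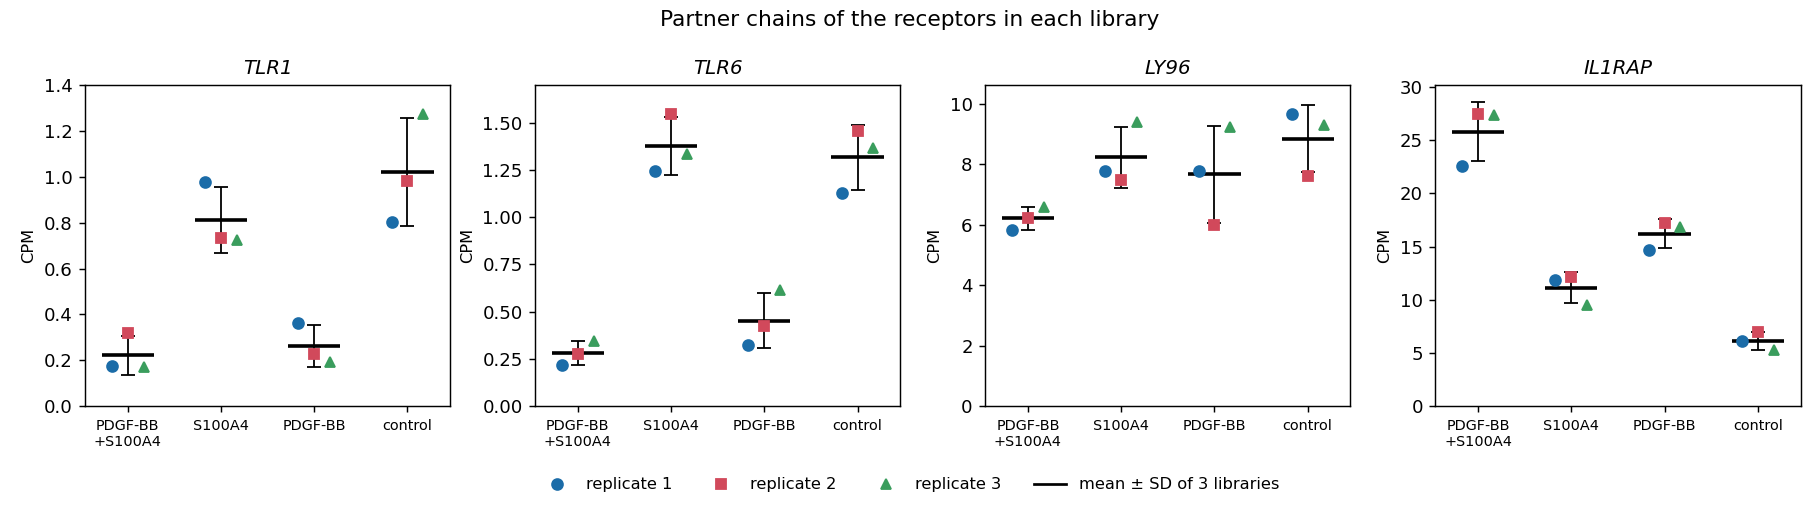
Level of TLR1, TLR6, LY96 and IL1RAP in each library (CPM), by group from left to right PDGF-BB+S100A4, S100A4, PDGF-BB and control; points are libraries by replicate number, and bars the mean ± SD of 3 libraries. IL1RAP is highest with both proteins (22.6 to 27.4 CPM) and lowest in control cells (5.33 to 7.02 CPM), while TLR1 and TLR6 are low in the 6 libraries with PDGF-BB.

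Among 95 other genes of the route, listed by role, 80 were in the table and 69 were tested. The lists were written with earlier results of these data known, so their shares are a description. With S100A4 5 of the 69 passed, all higher, beside 0.563% of all genes, with a median log2 change of 0.06 against -0.02 over all genes. Of these 5, NFKBIA, TNFAIP3 and ZC3H12A belong to the 13 tested inhibitors, whose median change was 0.82. NFKBIA, which retains NF-kB in the cytoplasm, rose 3.88-fold (1.96 ± 0.15 SE, edgeR adjusted p = 4.02e-04). TNFAIP3, an enzyme that edits ubiquitin on TRAF6 and related proteins, rose 6.99-fold (2.81 ± 0.27, adjusted p = 0.00118), and ZC3H12A, an RNase of inflammatory transcripts, rose 4.05-fold (2.02 ± 0.20, adjusted p = 0.00118). IRAK3, a kinase-like brake on the complex that IRAK2 joins, changed by 1.39 ± 0.30 (adjusted p = 0.0983), which passed with the block (1.38 ± 0.11, adjusted p = 1.69e-06). With the block 21 of the 69 were higher and 2 lower with S100A4, beside 10.7% of all genes called, and 9 of the higher ones were inhibitors.

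With PDGF-BB 12 of the 69 were higher and 3 lower, beside 14.7% of all genes called, with a median of 0.10. Of the 24 kinases and ubiquitin ligases, the longest list, 4 were higher and 1 lower. Of the 12 receptors and co-receptors 2 were higher and 2 lower, and of the 5 adaptors 2 were higher. Each other list had 1 gene higher and none lower. MAP2K3, a kinase that activates p38, rose 2.27-fold (1.18 ± 0.10 SE, edgeR adjusted p = 1.20e-04), and MAP3K5 rose 3.21-fold (1.68 ± 0.25, adjusted p = 0.00198). TICAM1, the adaptor of TLR3 and of the MYD88-independent arm of TLR4, rose 1.85-fold (0.89 ± 0.13, adjusted p = 0.00146). With both proteins 21 of the 69 were higher and 3 lower, beside 22.0% of all genes called, with a median of 0.19, and the inhibitors had 5 of 13 higher. NFKBIA, TNFAIP3 and ZC3H12A rose 3.01-fold, 6.76-fold and 3.58-fold (adjusted p = 8.68e-05, 1.13e-04 and 1.73e-04). With the block the list counts were 26 higher and 12 lower for PDGF-BB, beside 48.8% of all genes called, and 41 higher and 14 lower for both proteins, beside 56.1%.

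Adding S100A4 to PDGF-BB called 4 of the 69 in edgeR, NFKBIA, TNFAIP3, ZC3H12A and NFKB1, all higher, beside 0.273% of all genes. With the block 15 were called, all higher, beside 7.14% (5.11% called higher). The inhibitors NFKBIA and TNFAIP3 rose 3.48-fold and 4.77-fold in this comparison (adjusted p = 0.00113 and 0.00634). For the interaction no listed gene passed with or without the block.

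**Figure D5:**
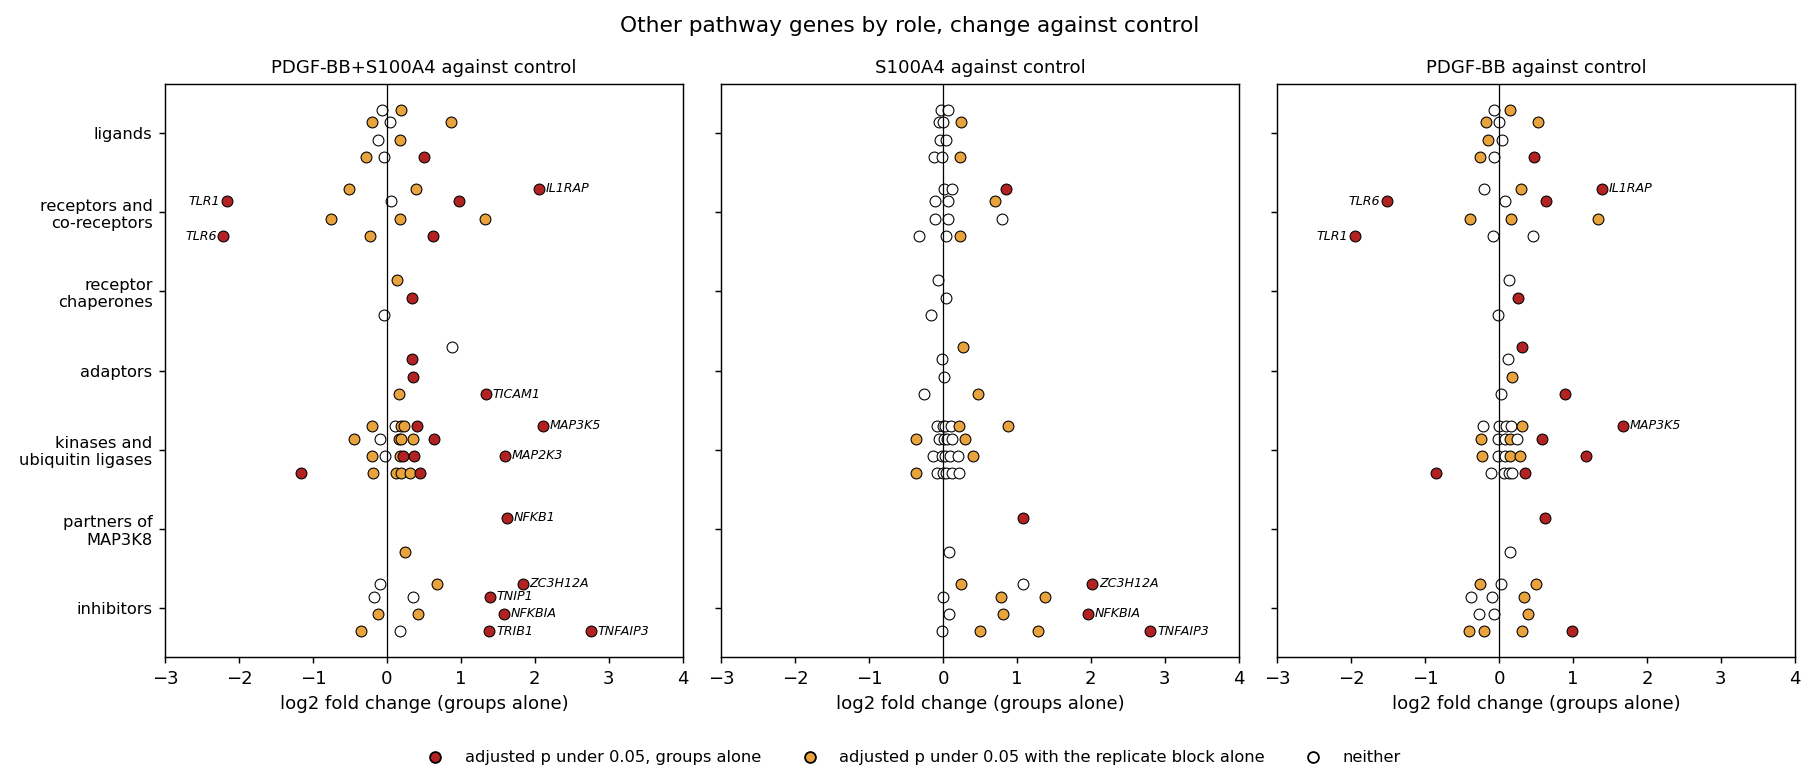
Log2 fold change against control (fit without the block) of the 69 tested list genes by role, with PDGF-BB+S100A4, S100A4 and PDGF-BB; each point is a gene, red where it passed without the block, orange where it passed with the block alone and white where it passed in neither. The median of the 13 inhibitors was 0.42 with both proteins, 0.82 with S100A4 and -0.07 with PDGF-BB.

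The likeness of the members to each other and to other genes was described by Pearson's r on log2 CPM over the 12 libraries, after the mean of each replicate number was subtracted. The points are libraries of the same 4 groups, whose differences enter r, and r is a description without a test. TLR2, IRAK2 and MAP3K8 formed one group, with r = 0.961 between TLR2 and MAP3K8, 0.954 between TLR2 and IRAK2, and 0.953 between IRAK2 and MAP3K8. TLR4 and CD14 formed a pair, with r = 0.946. The r of MYD88 was 0.0928 with IRAK2 and negative with the other tested members.

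Among 9417 genes compared, the closest to TLR2 were NFKBIZ (r = 0.988), MYBPH (0.974) and SYTL4 (0.966). NFKBIZ, a nuclear regulator of NF-kB, averaged 74.4 ± 17.5 CPM with both proteins, 156 ± 40.5 CPM with S100A4, 44.4 ± 13.3 CPM with PDGF-BB and 63.1 ± 17.2 CPM in control cells (SD, n = 3 each). NFKBIZ was also among the 3 closest to MAP3K8 (0.979), after WBP1L (0.989) and TBC1D22B (0.980). The closest to IRAK2 were STAT5A (0.990), IFNAR2 (0.986) and IFNGR2 (0.983), a transcription factor and receptor chains of cytokine signalling. STAT5A averaged 27.6 ± 1.57 CPM with both proteins, 46.2 ± 8.06 CPM with S100A4, 12.5 ± 0.847 CPM with PDGF-BB and 18.7 ± 2.50 CPM in control cells, the same order of groups as IRAK2. The closest to TLR4 were TADA1 (0.974), KIF12 (0.962) and SLC38A9 (0.950), and the closest to CD14 were TMTC4 (0.994), ACAD10 (0.979) and COG5 (0.976). KIF12 averaged 14.3 ± 2.27 CPM with both proteins, 21.3 ± 1.17 CPM with S100A4, 14.5 ± 0.524 CPM with PDGF-BB and 21.2 ± 1.71 CPM in control cells. MYD88 had no gene above r = 0.885, which was that of ENDOV.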

How the data were processed

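Per the labels' protocols, total RNA was made into TruSeq libraries and read as single-end reads of 100 nt. The deposited table holds the authors' read counts for each gene as whole numbers, without normalization. Per the submitters' processing notes, the authors used CASAVA 1.8.2, STAR 2.4 and featureCounts 1.4.6 with Sscrofa11.1. Tool settings, the annotation, strand use and the handling of multi-mapping reads are not given in the sources used. Symbols were found for 14572 of 21153 identifiers and 10833 of 12444 tested genes. No sequence was used.

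Genes were kept by filterByExpr (minimum count of 10, by group). Counts were tested with edgeR 4.0.16 (quasi-likelihood, two-sided, TMM scaling) in R 4.3.3, with 4 group means over 12 libraries, with Benjamini-Hochberg adjustment over all 12444 genes. Pairs and likeness used log2 CPM with a prior count of 2. Intervals are 95%. The likeness rule took, from named genes with a mean log2 CPM of 1 or more, the 3 with the highest r. Up to 4 genes per role list and comparison were named, those with the smallest adjusted p. The members and lists were chosen with earlier results of these data known. The tests were run on simulated data, in which the fit without the block met libraries without a replicate effect. That run does not cover the differences between replicate numbers found in the real libraries.

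Replicate numbers are shared by the groups. Deviations from group means correlated at r = 0.746 to 0.908 in 18 same-numbered pairs of libraries and at -0.676 to 0.136 in 36 other pairs, so the numbers were taken as pairing the libraries, from the data and not the labels. The block lowered the common biological coefficient of variation to 5.14%, against 27.2% without it. No group held libraries that agreed within sampling noise (chi-square of 22.0 to 159 per gene). Alternatives were DESeq2 1.42.0, limma-voom (limma 3.58.1), RLE and upper-quartile scaling, no filter, a stricter filter (a mean of 5 CPM, and 1 CPM in 3 libraries), the compared groups alone, the block, and libraries or replicate numbers left out.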

Additional observations from a re-analysis of the deposited data

How the results depend on the processing

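The number of members called against control was 3 with S100A4 (1 in a fit of the compared groups alone), 2 with PDGF-BB (1 in limma-voom, 1 without the filter, 5 with the replicate block) and 1 with both proteins (4 with the block). For both proteins against PDGF-BB it was 2 (1 in limma-voom, and 0 in edgeR on the compared groups alone, where 3 had an unadjusted p under 0.05, and 3 with the block). For both proteins against S100A4 it was 3 (2 in a fit of the compared groups alone, 5 with the block), and for S100A4 against PDGF-BB 3 (4 with the block). With libraries or replicate numbers left out, counts against control ran from 0 to 2 for S100A4, 0 to 1 for PDGF-BB and 0 to 2 for both proteins. They ran from 0 to 2 and 0 to 3 for both proteins against PDGF-BB and S100A4, and from 1 to 3 for S100A4 against PDGF-BB. In the replicate block with replicate numbers left out, those 6 counts ran from 3 to 3, 3 to 5, 2 to 4, 3 to 3, 3 to 4 and 4 to 4. Fewer libraries entered the fits that left some out.

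Of 863 member values under alternatives, 748 kept direction and side of the threshold, 31 passed it newly, 53 no longer passed, and 31 changed sign, none of which was called. TLR4 with S100A4 against control was -0.098 in limma-voom and -0.26 in the block without replicate 2, and from -0.95 to 0.82 with libraries left out. With libraries left out, TLR4 with both proteins ran from -2.35 to 0.059 against control, from -1.20 to 1.81 against PDGF-BB and from -2.46 to 0.29 against S100A4. CD14 with both proteins against PDGF-BB ran from -0.15 to 0.057, with 0.059 in the block without replicate 1. MYD88 was -0.0056 for both proteins against control under upper-quartile scaling. For S100A4 against PDGF-BB, MYD88 was 0.017 under that scaling, 0.0043 with the stricter filter, 0.0035 in the block without replicate 1, and from -0.047 to 0.031 with libraries left out. Interactions with libraries left out ran from -1.31 to 1.70 for TLR4, from -0.0091 to 0.20 for CD14, from -0.28 to 0.063 for IRAK2 and from -0.40 to 0.0045 for MAP3K8. The cause was not tested. TLR2 did not enter the stricter filter's fit. Depth limits AGER, whose libraries held 0 to 4 counts.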

Other observations

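Some other receptors and ligands of these families had few or no counts. The receptors TLR7, TLR8, TLR9, TLR10 and CD180 had 0 to 3 counts in every library. LY86, a partner of CD180, and LBP, S100A8 and S100A12, which are ligands or carry them, had 0 in every library. TLR3, the endosomal receptor for double-stranded RNA, was detected at 13.2, 8.46 and 7.37 CPM with both proteins, 24.8, 13.3 and 15.2 CPM with S100A4, 17.8, 6.94 and 12.8 CPM with PDGF-BB, and 23.3, 10.7 and 15.0 CPM in control cells. In each replicate number its level with both proteins was below control. The change was -0.76 ± 0.41 (SE, adjusted p = 0.230 in edgeR's quasi-likelihood test) and passed with the replicate block (-0.73 ± 0.14, adjusted p = 3.79e-04).

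The cells' own S100A4 transcript had 86.7, 117 and 69.6 CPM with both proteins, 97.4, 124 and 68.0 CPM with S100A4 protein, 77.7, 124 and 59.5 CPM with PDGF-BB, and 94.0, 138 and 64.8 CPM in control cells. Replicate 2 was the highest library of each group. Its change with PDGF-BB was -0.18 ± 0.35 without the replicate block (edgeR adjusted p = 0.831). With the block that change was -0.18 ± 0.06 (adjusted p = 0.0303), and with S100A4 protein it was -0.02 ± 0.06 (adjusted p = 0.906). IL10RA, the ligand-binding chain of the IL10 receptor, had 34.7, 53.8 and 24.2 CPM with both proteins, 14.1, 23.6 and 8.40 CPM with S100A4, 32.8, 57.6 and 23.1 CPM with PDGF-BB, and 13.9, 22.9 and 8.11 CPM in control cells. It was higher with PDGF-BB in all 3 same-numbered pairs. Its change with PDGF-BB was 1.33 ± 0.51 (adjusted p = 0.116) and passed with the block (1.34 ± 0.07, adjusted p = 8.34e-09). TLR3, S100A4 and IL10RA were singled out after their values were seen.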
